A study of Mus musculus with 6 samples.

Results

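The genes described here are 38 genes of DNA replication and cell division that are widely used to read cell proliferation, out of 49315 genes counted in mouse skeletal muscle. They were matched by gene symbol. Levels are given as CPM, the counts of a gene scaled to a common library size (TMM, the trimmed mean of M values) and expressed relative to the library total. Of the 38 genes, 14 had a mean of over 1 CPM across the 6 libraries and 24 had 1 CPM or less. After filtering on low counts 32 genes were tested. Aurkb, Bub1, Kif4, Cenpe, Cenpf and Hmmr were too low for the test and are given by their counts or unfiltered values.

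The libraries were made from calf muscle (gastrocnemius) of male mice of the inbred strain C57BL6J. Adeno-associated virus (AAV9) was injected into the muscle when the mice were 5 months old, and the muscle was collected after a further 5 months. AAV9-HSA-CAAHR carried a constitutively active aryl hydrocarbon receptor (CAAHR; replicates 31, 34 and 36). AHR is a transcription factor switched on by ligands, and in CAAHR its ligand binding domain was removed. AAV9-HSA-GFP carried green fluorescent protein in the same vector (replicates 42, 43 and 46). The HSA promoter, from human skeletal actin, is active in muscle fibres, whose nuclei do not divide. Both groups received virus. GFP is foreign to the mouse and can draw an immune response, which limits it as a neutral control, and the study also assayed selected immune genes against naive mice in data not analysed here. Uninjected muscle was not analysed here either, so a rise in one group and a fall in the other relative to uninjected muscle cannot be told apart. In whole muscle, fewer cells of a type and less RNA per cell cannot be told apart either.

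A cell that divides passes through S phase, in which DNA is copied, and mitosis, in which the copies are separated. The MCM proteins form the helicase that is loaded on replication origins, Pcna is the sliding clamp of the replication fork, and Rrm2 and Tyms supply deoxynucleotides. Cyclins with Cdk1 drive entry into mitosis, the Aurora and Polo kinases and the spindle checkpoint control it, kinesins and microtubule binding proteins build the spindle, and the anaphase-promoting complex ends it. The MCM and Pcna genes are classic targets of E2F factors, while the mitotic genes are classic targets of the DREAM and B-MYB/FOXM1 complexes, which act through the cell cycle homology region (CHR) and CCAAT boxes.

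Promoter sequence was available from RefSeq for 31 of the 38 genes, as windows of 250 bases before to 50 bases after the transcription start on GRCm38.p6 (33 windows in all). No window was given for Kif20a, Ccne2, Aurkb, Stmn1, Tpx2, Mcm4 and Ccna2. The 5 genes shown next are those of the 6 lower genes described below that have a window, and Mcm6, a helicase gene whose level did not change detectably, is shown for contrast. Each stretch runs 5′ to 3′ in the direction of the gene from 150 bases before to 30 bases after the start. Capitals mark the letters of a CHR, CCAAT or E2F motif on either strand.
Mki67 (chr7:135716350-135716529, minus strand): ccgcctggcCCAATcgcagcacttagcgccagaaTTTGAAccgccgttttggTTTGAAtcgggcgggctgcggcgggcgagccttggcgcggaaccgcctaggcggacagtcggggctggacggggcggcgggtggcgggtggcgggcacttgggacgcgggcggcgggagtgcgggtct
Top2a (chr11:99024160-99024339, minus strand): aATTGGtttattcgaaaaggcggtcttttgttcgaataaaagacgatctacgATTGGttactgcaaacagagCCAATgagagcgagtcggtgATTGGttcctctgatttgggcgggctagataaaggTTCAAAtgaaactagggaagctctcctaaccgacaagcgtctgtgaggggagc
Ncapg (chr5:45669775-45669954, plus strand): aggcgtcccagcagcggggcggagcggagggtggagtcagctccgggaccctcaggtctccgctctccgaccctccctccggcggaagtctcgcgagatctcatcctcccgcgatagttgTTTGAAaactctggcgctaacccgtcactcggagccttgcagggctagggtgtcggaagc
Rrm2 (chr12:24708104-24708283, plus strand): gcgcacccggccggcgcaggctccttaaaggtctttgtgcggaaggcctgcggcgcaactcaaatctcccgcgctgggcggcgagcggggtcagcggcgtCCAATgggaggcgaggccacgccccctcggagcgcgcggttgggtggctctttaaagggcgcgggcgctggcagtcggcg
Ccnb1 (chr13:100786457-100786636, minus strand): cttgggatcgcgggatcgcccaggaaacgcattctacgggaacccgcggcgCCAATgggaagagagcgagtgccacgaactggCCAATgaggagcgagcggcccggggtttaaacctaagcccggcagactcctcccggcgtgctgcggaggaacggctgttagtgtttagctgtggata
Mcm6 (chr1:128359676-128359855, minus strand): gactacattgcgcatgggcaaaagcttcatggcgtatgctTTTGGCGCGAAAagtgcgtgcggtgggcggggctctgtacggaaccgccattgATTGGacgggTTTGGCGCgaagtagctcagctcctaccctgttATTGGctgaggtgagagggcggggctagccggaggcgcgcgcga

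The motifs searched on both strands were TTTGAA for the CHR, CCAAT for the CCAAT box, and TTTCCCGC, TTTCGCGC, TTTGCCGC, TTTGGCGC and TTCCCGCC for E2F. Some E2F letters overlap each other, as in Mcm6, where 2 of its 3 matches form 1 run of capitals. Over the whole window the CHR letters were found in 19 of 31 genes (61.3%), against 20.2% of the 27025 genes with a window and 14.1% of those tested for expression. CCAAT was found in 27 of 31 genes (87.1%), against 41.1% of all genes and 42% of tested genes, and was missing in Nusap1, Tyms, Kif15 and Birc5. The E2F letters were found in 7 of 31 genes (22.6%), against 4.46% of all genes and 7.74% of tested genes, namely Mcm3, Mcm5, Mcm6, Mcm7, Cdk1, Kif15 and Ncapg. Of the MCM genes with a window, 4 of 5 held E2F letters and 1 of 5 (Mcm2) held the CHR letters, while of the other 26 genes 3 held E2F letters and 18 held the CHR letters. Of the 5 lower genes with a window, 5 held CCAAT and 3 (Mki67, Top2a and Ncapg) held the CHR letters, which were also in 13 of the 21 tested genes that were not called. The core of the AHR response element, GCGTG, was found in 18 of 31 genes (58.1%), against 54.2% of the tested genes and 35.2% of all genes, and in 2 of the 5 lower genes, Rrm2 and Ccnb1. These are matches of letters and not measured sites, and GCGTG is short enough to be common.

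**Figure D1:**
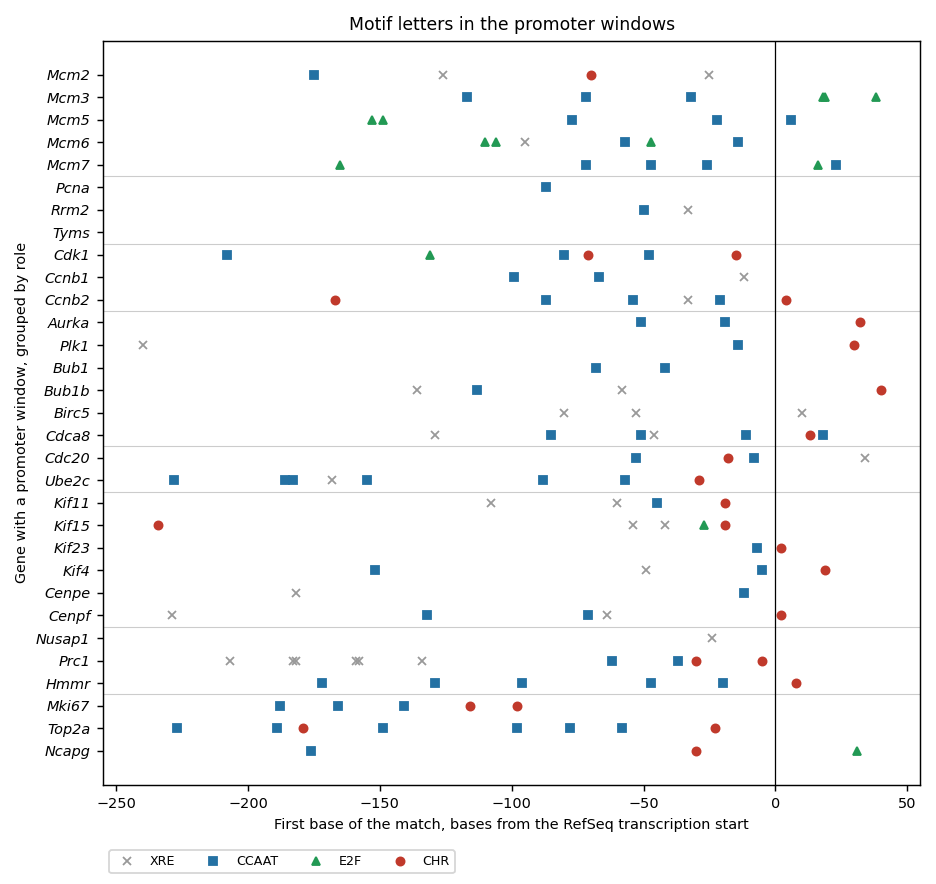
Position of motif letters in the promoter windows of the 31 proliferation genes that have one, grouped by role. The x axis gives the first base of each match in bases from the RefSeq transcription start, and symbols mark the CHR, CCAAT, E2F and AHR response element (XRE) letters on either strand. Red CHR points lie in 19 genes and in 1 of the 5 MCM genes, and green E2F points lie in 4 of the 5 MCM genes.

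Ahr, the gene delivered, and its target Cyp1a1 followed the labels in every library. Ahr was at 9.97, 22.8 and 17.3 CPM in CAAHR replicates 31, 34 and 36 and at 2.47, 2.55 and 1.87 CPM in GFP replicates 42, 43 and 46, and Cyp1a1 was at 1231 to 1680 CPM against 5.85 to 7.74 CPM. The 6 libraries held 43432994 to 58825752 counts, which made 1 CPM equal to 41.6 to 61.0 counts. Reads of delivered and native Ahr were not separated. As a check of the tissue, the fast myosin gene Myh4 was at 57090 to 92790 CPM.

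Most proliferation genes had a lower level in CAAHR muscles than in GFP muscles, and 6 passed the test. Of 38 genes, 33 had a lower mean in CAAHR and 5 (Mcm6, Mcm7, Pcna, Aurka and Kif20a) a higher one, of which Mcm6, Mcm7 and Pcna fell just below 0 under upper quartile scaling, and Pcna under RLE scaling. In 19 genes every CAAHR library was under every GFP library, in 1 gene (Kif20a) every CAAHR library was over every GFP library, and in 18 the groups overlapped. Over the 28661 genes with a count in any library, 10.9% had every CAAHR library under every GFP library and 9.5% had the opposite. With p-values adjusted by the Benjamini-Hochberg method over 15847 genes, the quasi-likelihood test of edgeR called 6 of the 32 tested genes lower (Mki67, Top2a, Ncapg, Tpx2, Rrm2 and Ccnb1) and 0 higher, where 4.57% of all tested genes were called lower and 3.04% higher. At an unadjusted p under 0.05 edgeR gave 17 lower and 0 higher, where 12.6% of all tested genes were lower and 11.3% higher by that measure. DESeq2 also called 6 lower (Mki67, Top2a, Tpx2, Rrm2, Stmn1 and Ube2c) and 0 higher, beside 6.99% of all tested genes called lower and 5.14% higher by that tool. No adjusted p was given by DESeq2 for Ncapg, Ccnb1, Cdk1 and Kif15. With limma-voom 7 were lower (the 6 of edgeR and Ube2c) and 0 higher, beside 4.8% and 4.04% of all tested genes. Reads of Ube2c cannot be told apart from those of Tnnc2, an abundant muscle gene that shares exon bases with it. Of the 6 genes, 5 (not Tpx2) were also over 2-fold lower, which was true of 2.51% of all tested genes. Leaving out 1 library moved the 6 calls to between 2 (without CAAHR replicate 36) and 8 (without CAAHR replicate 34), with 3 in each of the other 4 fits. Mki67 and Top2a were called lower in each of the 6 fits. Calls over all tested genes, lower or higher, went from 1205 to 530 without CAAHR replicate 36 and to 1727 without CAAHR replicate 34.

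The median log2 fold change (CAAHR over GFP) was -0.82 over all 38 genes without a filter on low counts, beside -0.02 over all genes, and -0.74 over the 32 tested genes, beside 0.009 over all tested genes. The filter itself favours genes that are high in 1 group. Of the 32 tested genes, 10 reached its level of about 0.193 CPM in 3 GFP and fewer than 3 CAAHR libraries, and 0 did so the other way round. Of the 6 called genes, 2 (Ncapg and Ccnb1) reached it in no CAAHR library, so they entered the test only through the group in which they were high. The share called among tested genes is therefore a description and not support for a direction. Among tested genes in general 14.9% had every CAAHR library under every GFP library.

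**Figure D2:**
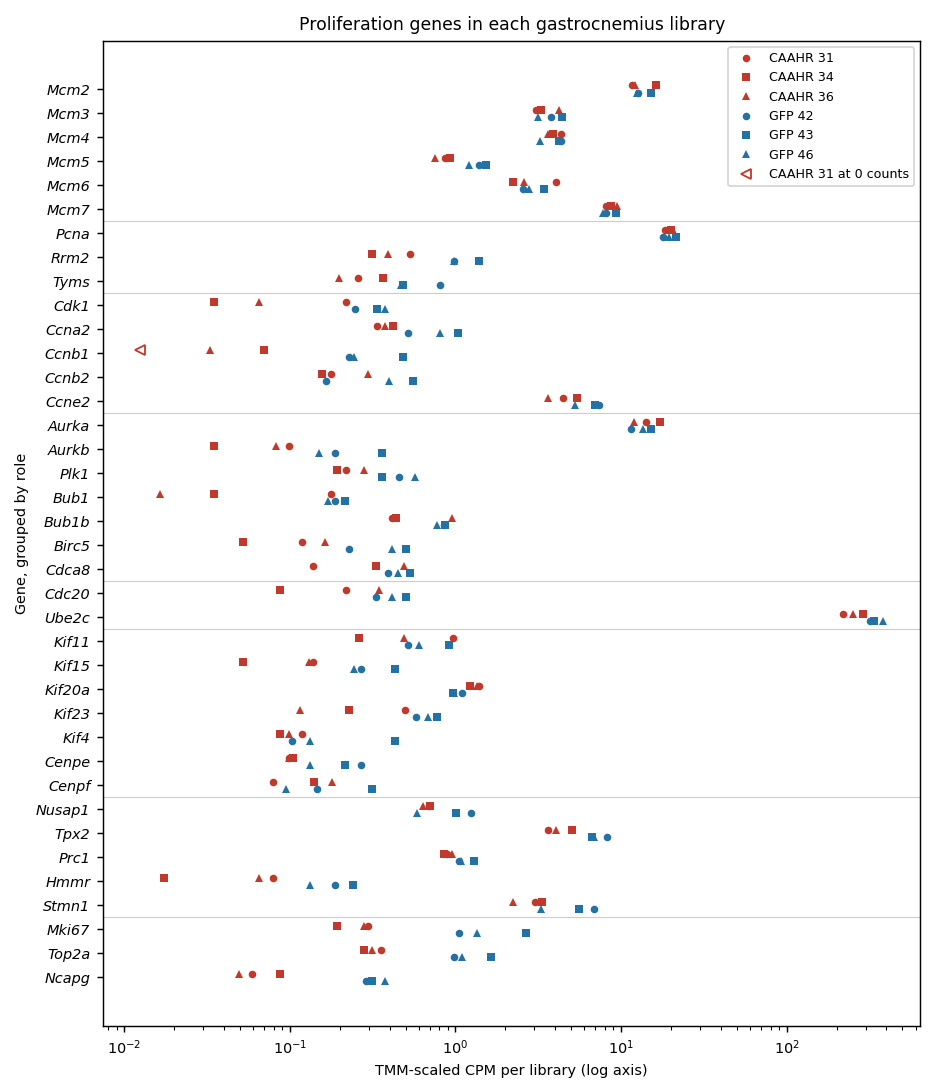
TMM-scaled CPM of each of the 38 proliferation genes in each of the 6 libraries, on a log axis, with genes grouped by role. Red symbols are CAAHR libraries, blue symbols GFP libraries, and the open triangle marks the library at 0 counts of Ccnb1. Red and blue mix for the MCM genes other than Mcm5 and for Pcna, and red lies left of blue for Mki67, Top2a and Ncapg.

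The larger log2 fold changes were found among the low genes. All 24 genes with a mean of 1 CPM or less over the 6 libraries had a lower mean in CAAHR. Their median log2 fold change was -1.18 without a filter, beside -0.02 over all genes. In 15 of them every CAAHR library was under every GFP library, as in 10.9% of all genes with a count in any library. Values for all genes of a similarly low level are not given here. The summed level of the 24 genes was 6.29, 4.69 and 6.15 CPM in CAAHR replicates 31, 34 and 36. In GFP replicates 42, 43 and 46 it was 11.2, 16.6 and 11.7 CPM, so the sums did not overlap either. Of the 14 genes over 1 CPM, 9 had a lower and 5 a higher mean, with a median log2 fold change of -0.04 without a filter. Among those 14, 1 was called lower (Tpx2), and among the 24 low genes 5 were called. Per kilobase of exon (RPKM) the most abundant of the 38 genes were Ube2c at 97.4 in CAAHR and 133 in GFP, Pcna at 8.21 and 8.16, and Aurka at 5.71 and 5.29, while Mki67 was at 0.0255 and 0.168. The level of Ube2c may hold reads of Tnnc2.

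**Figure D3:**
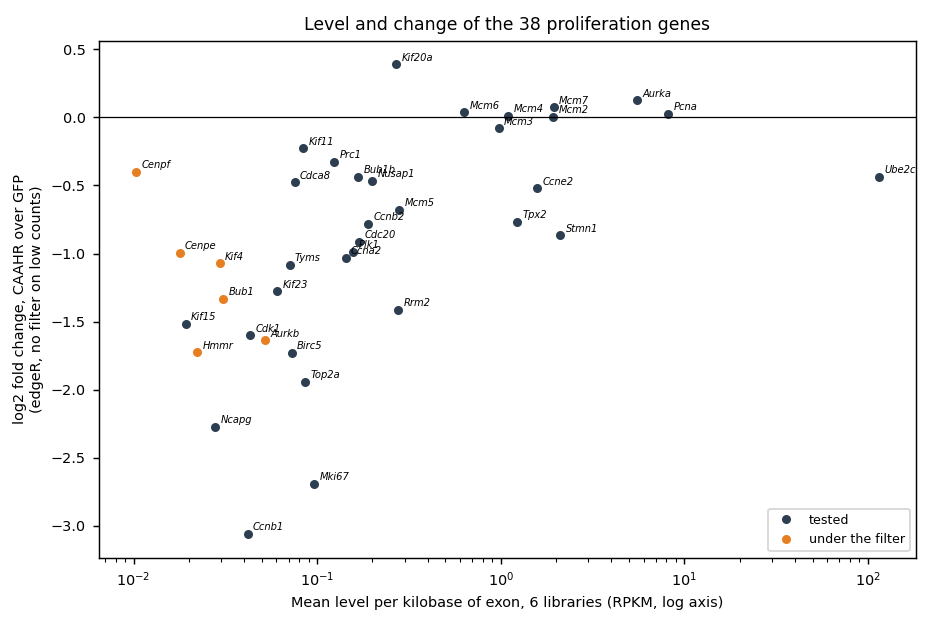
Log2 fold change (CAAHR over GFP, edgeR without a filter on low counts) of the 38 proliferation genes against their mean level over 6 libraries in RPKM, on a log axis. Dark points are genes that passed the filter and orange points the 6 that did not. The MCM genes other than Mcm5, Pcna and Aurka lie near 0 at higher levels, and Ccnb1, Mki67, Ncapg and Top2a lie lowest.

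Mki67 encodes Ki-67, the protein that coats mitotic chromosomes and the most used marker of cycling cells. It lies on chromosome 7 (135689784 to 135716361, minus strand, GRCm38). It was at 0.297, 0.193 and 0.279 CPM in CAAHR replicates 31, 34 and 36 and at 1.06, 2.67 and 1.34 CPM in GFP replicates 42, 43 and 46, from 11 to 17 counts against 51 to 111. All GFP libraries were above all CAAHR libraries, and GFP replicate 43 was far above the other 2. The log2 fold change was -2.71 ± 0.41 (SE), or 6.52-fold lower (adjusted p = 0.00506, edgeR test).

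Top2a, the topoisomerase that untangles replicated chromosomes, lies on chromosome 11 (98992943 to 99024189, minus strand). It was at 0.356, 0.280 and 0.312 CPM in CAAHR and at 0.974, 1.63 and 1.10 CPM in GFP, in the same order of replicates. The CAAHR libraries were close together and all under the lowest GFP library. The log2 fold change was -1.96 ± 0.32 (adjusted p = 0.00727, edgeR test). Ncapg, a subunit of the condensin complex that compacts mitotic chromosomes, lies on chromosome 5 (45669919 to 45700546, plus strand). It was at 0.0593, 0.0875 and 0.0492 CPM in CAAHR and at 0.290, 0.312 and 0.378 CPM in GFP, from only 3 to 5 counts against 13 to 20. Its log2 fold change was -2.29 ± 0.46 (adjusted p = 0.0184, edgeR test). Of the 3 genes of chromosome structure, Ncapg was thus tested only because of its GFP libraries. Their summed level was 0.560 to 0.712 CPM in CAAHR and 2.32 to 4.61 CPM in GFP. Ncapg shares 13.4% of its exon bases with Lcorl on the opposite strand, whose log2 fold change was 0.42.

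The 6 genes of the licensing helicase had 0 calls by edgeR, DESeq2 and limma-voom, with 1 lower at an unadjusted p under 0.05. Mcm2 was at 11.6, 16.3 and 12.2 CPM in CAAHR and at 12.7, 15.1 and 12.5 CPM in GFP. The groups overlapped fully, and the log2 fold change was -0.01 with a 95% interval from -0.34 to 0.32. The intervals were -0.52 to 0.33 for Mcm3, -0.38 to 0.37 for Mcm4, -0.52 to 0.56 for Mcm6 and -0.22 to 0.34 for Mcm7. The intervals of Mcm2, Mcm3, Mcm4, Mcm6 and Mcm7 include 0 and exclude a fall of 2-fold. Mcm5 was the exception, at 0.870, 0.928 and 0.755 CPM in CAAHR and at 1.39, 1.54 and 1.21 CPM in GFP. Its groups did not overlap, and its log2 fold change was -0.69 ± 0.24 (adjusted p = 0.108, edgeR test), so it was not called. The summed level of the 6 genes was 32.0, 35.3 and 32.9 CPM in CAAHR replicates 31, 34 and 36 and 32.9, 38.1 and 30.7 CPM in GFP replicates 42, 43 and 46.

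At the replication fork and in nucleotide supply the 3 genes differed among themselves. Pcna was at 18.4, 20.1 and 20.6 CPM in CAAHR and at 17.8, 21.4 and 19.6 CPM in GFP. Its log2 fold change was 0.009 with a 95% interval from -0.22 to 0.24. Rrm2, the regulatory subunit of ribonucleotide reductase that is made in S phase, lies on chromosome 12 (24708241 to 24714146, plus strand). It was at 0.534, 0.315 and 0.394 CPM in CAAHR and at 0.974, 1.39 and 0.982 CPM in GFP, with no overlap. The log2 fold change was -1.43 ± 0.32 (adjusted p = 0.0275, edgeR test). Tyms, thymidylate synthase, was at 0.197 to 0.368 CPM in CAAHR and 0.472 to 0.808 CPM in GFP. Its log2 fold change was -1.10 ± 0.39, and it was not called (adjusted p = 0.124, edgeR test).

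Cyclins and their kinase were lower by mean in 5 of 5 genes, and 1 was called. Ccnb1, cyclin B1 of mitotic entry, lies on chromosome 13 (100778650 to 100786570, minus strand). It had 0, 4 and 2 counts in CAAHR replicates 31, 34 and 36 and 11, 20 and 13 counts in GFP replicates 42, 43 and 46, or 0 to 0.070 CPM against 0.228 to 0.481 CPM. The log2 fold change was -3.07 ± 0.72 (adjusted p = 0.0323, edgeR test). Like Ncapg, it passed the filter through the GFP libraries only. Its size is loosely set by these few counts, with a 95% interval from -4.68 to -1.45. Its partner Cdk1 was at 0.218, 0.035 and 0.0656 CPM in CAAHR and at 0.249, 0.337 and 0.378 CPM in GFP. The groups did not overlap, but CAAHR replicate 31 was close to GFP replicate 42. The log2 fold change was -1.62 ± 0.60 and was not called (adjusted p = 0.133, edgeR test). Ccna2, cyclin A2 of S phase and G2, had a log2 fold change of -1.05 ± 0.34 (adjusted p = 0.0981, edgeR test), with no overlap between groups. Ccnb2 and the G1/S cyclin gene Ccne2 had log2 fold changes of -0.79 and -0.54 and groups that overlapped.

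Of the 7 genes of mitotic kinases, the chromosomal passenger complex and the spindle checkpoint, 0 of the 5 tested were called by edgeR, DESeq2 or limma-voom, and 2 were lower at an unadjusted p under 0.05. Mean levels were lower in 6 of the 7. Birc5, the passenger complex subunit survivin, was at 0.119, 0.0525 and 0.164 CPM in CAAHR and at 0.228, 0.505 and 0.415 CPM in GFP. Its log2 fold change was -1.74 ± 0.52 (adjusted p = 0.0720, edgeR test), with no overlap. Plk1, the Polo kinase of mitotic entry, had no overlap either and a log2 fold change of -1.002 ± 0.37 (adjusted p = 0.134, edgeR test). Aurka, the spindle pole Aurora kinase, was at 14.2, 17.2 and 11.99 CPM in CAAHR and at 11.5, 15.1 and 13.5 CPM in GFP. Its groups overlapped, with a log2 fold change of 0.11 and a 95% interval from -0.23 to 0.45. The passenger complex gene Cdca8 and the checkpoint kinase gene Bub1b had log2 fold changes of -0.49 and -0.45. Aurkb, the kinase of the passenger complex, was under the filter with 5, 2 and 5 counts in CAAHR and 9, 15 and 8 counts in GFP. Bub1, also under the filter, had 9, 2 and 1 counts against 9, 9 and 9.

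**Figure D4:**
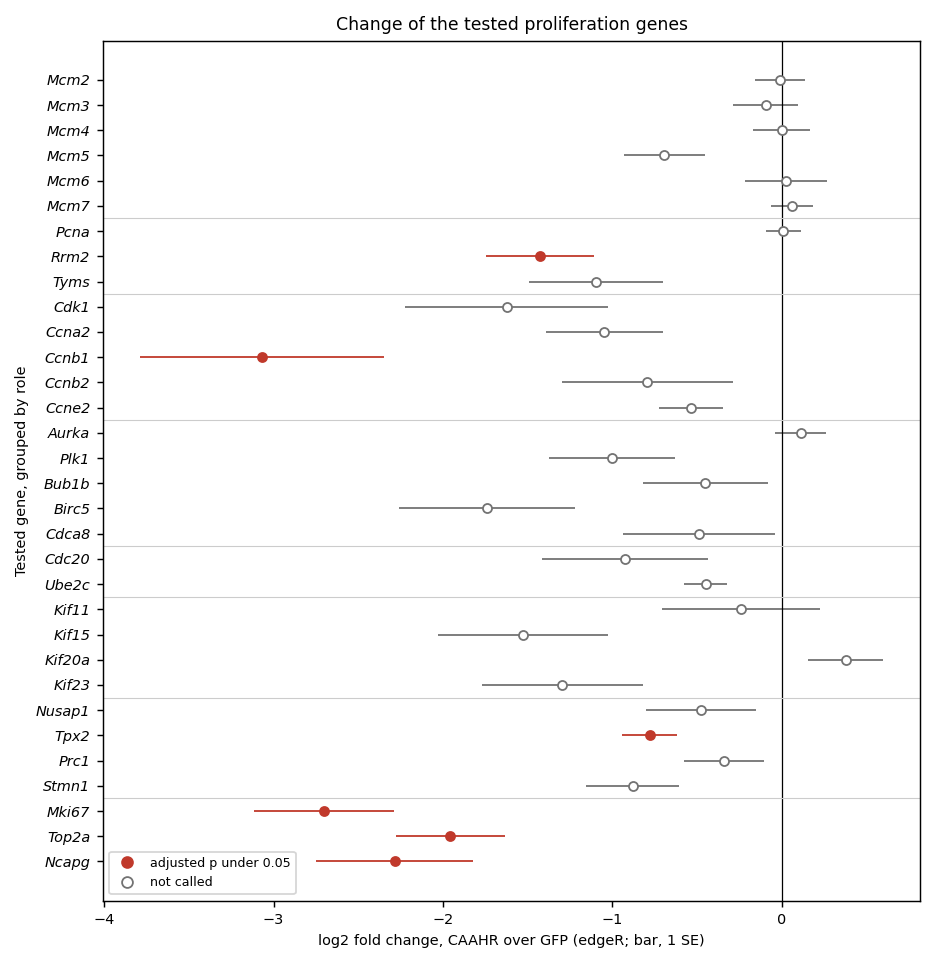
Log2 fold change (CAAHR over GFP) of the 32 tested proliferation genes, with bars of 1 SE from the edgeR quasi-likelihood test and genes grouped by role. Filled red points are the 6 genes with an adjusted p under 0.05 and open points were not called. The 3 genes of chromosome structure at the bottom lie between -2.71 and -1.96, and 5 of the 6 MCM genes lie between -0.10 and 0.06.

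The partners of the anaphase-promoting complex were Cdc20, its activator, and Ube2c, its ubiquitin-conjugating enzyme. Cdc20 was at 0.218, 0.0875 and 0.345 CPM in CAAHR and at 0.332, 0.505 and 0.415 CPM in GFP, with groups that overlapped and a log2 fold change of -0.93 ± 0.49. Ube2c was at 220, 288 and 252 CPM in CAAHR and at 318, 337 and 383 CPM in GFP, with no overlap and a log2 fold change of -0.45 ± 0.13 (adjusted p = 0.0625, edgeR test). Its CPM was the highest of the 38 genes. Of its exon bases 22.8% (592 bases) are shared with Tnnc2, fast skeletal troponin C, on the opposite strand of chromosome 2 (Ube2c at 164769898 to 164778822). Tnnc2 held 2495173 counts in the 6 libraries and Ube2c 92545. Counts of Ube2c were 3.53% to 4.12% of those of Tnnc2 in each library, and Tnnc2 had a log2 fold change of -0.47 ± 0.17. Whether the libraries kept the strand was not stated, so reads of the 2 genes cannot be told apart here.

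The 7 kinesins and kinetochore genes had 0 calls among 4 tested by edgeR, DESeq2 or limma-voom, but DESeq2 gave no adjusted p for Kif15. At an unadjusted p under 0.05 edgeR gave 2 lower, and 6 of the 7 genes had a lower mean. Kif15, a spindle kinesin, was at 0.138, 0.0525 and 0.131 CPM in CAAHR and at 0.269, 0.433 and 0.246 CPM in GFP, with a log2 fold change of -1.53 ± 0.50 (adjusted p = 0.0967, edgeR test). Kif23, the kinesin of the central spindle, was at 0.494, 0.228 and 0.115 CPM in CAAHR and at 0.580, 0.769 and 0.680 CPM in GFP, with a log2 fold change of -1.30 ± 0.48 (adjusted p = 0.132, edgeR test). Neither gene overlapped between groups. Kif11, the kinesin that pushes spindle poles apart, overlapped and had a log2 fold change of -0.24 ± 0.46. Kif20a, a kinesin of cytokinesis, was the only one of the 38 genes with every CAAHR library higher, at 1.38, 1.23 and 1.35 CPM against 1.10, 0.961 and 0.982 CPM. Its log2 fold change was 0.38 ± 0.22 and was not called (adjusted p = 0.342, edgeR test). Kif20a shares 29.3% of its exon bases with Cdc23 on the opposite strand, which held 5014 counts in the 6 libraries against 367 for Kif20a and had a log2 fold change of 0.12. Kif4, Cenpe and Cenpf were under the filter, with unfiltered log2 fold changes of -1.07, -0.99 and -0.40.

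Among the 5 genes of spindle and microtubule binding, Tpx2 was called lower. It encodes the factor that activates Aurora A and nucleates spindle microtubules, and lies on chromosome 2 (152847964 to 152895321, plus strand). It was at 3.64, 5.02 and 4.04 CPM in CAAHR and at 8.23, 6.71 and 6.87 CPM in GFP, with 184 to 287 counts against 279 to 397. The groups did not overlap in CPM, and the log2 fold change was -0.78 ± 0.16 (adjusted p = 0.0204, edgeR test). Stmn1, stathmin, a microtubule-destabilizing protein also found in nerve, was at 3.03, 3.33 and 2.22 CPM in CAAHR and at 6.88, 5.60 and 3.30 CPM in GFP. The highest CAAHR library was just above the lowest GFP library, and the log2 fold change of -0.88 ± 0.27 was not called (adjusted p = 0.0872, edgeR test). Nusap1 and Prc1, which bundle spindle microtubules, had log2 fold changes of -0.48 and -0.34. Hmmr was under the filter, with 4, 1 and 4 counts in CAAHR and 9, 10 and 7 in GFP.

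Shared exon sequence was not limited to Ube2c and Kif20a. In the GENCODE annotation 14 of the 38 genes share exon bases with another gene and 24 share none. Of the 24, 19 were tested and 4 were called lower (Mki67, Tpx2, Rrm2 and Ccnb1), and 13 had every CAAHR library under every GFP library. These shares were 4.57% of all tested genes and 10.9% of all genes with a count in any library. Of the other 14, 13 were tested and 2 were called (Top2a and Ncapg). Top2a shares only 1.4%, with a small RNA gene at 0 counts. On the opposite strand, Ccna2 shares 12.5% with Exosc9 (175 counts against 4642) and Ccne2 17.4% with Ints8 (1684 against 3855). Kif4 shares 15.1% with Pdzd11 (47 against 1668). The log2 fold changes of Exosc9, Ints8 and Pdzd11 were 0.05, 0.35 and 0.47. Ccnb1, Ccnb2, Pcna, Stmn1 and Tyms have annotated near copies in the genome, which can take or lose reads when only unique matches are counted.

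The libraries did not contribute evenly. GFP replicate 43 was the highest of the 6 libraries in 20 of the 38 genes, GFP replicate 42 in 7 and GFP replicate 46 in 4, and CAAHR libraries were highest in 7 genes together (3, 2 and 2). CAAHR replicate 34 was lowest in 15 genes, CAAHR replicate 31 in 9 and CAAHR replicate 36 in 8. Beside Mki67 and Top2a, the calls left were Tpx2 without GFP replicate 43, Ncapg without GFP replicate 42, Stmn1 (not called before) without GFP replicate 46, Rrm2 without CAAHR replicate 31, and no other gene without CAAHR replicate 36. Without CAAHR replicate 34 all 6 genes were called and Ccne2 and Ube2c with them. Without GFP replicate 43 the median over the tested genes was -0.61.

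The wider cell cycle machinery was covered by 152 further genes in 8 lists, of which 151 were in the table and 123 were tested. The test called 9 lower and 1 higher, where 4.57% of all tested genes were called lower and 3.04% higher. The median log2 fold change over the 123 genes was -0.18, beside 0.009 over all tested genes. Over all 151 genes, 41 had every CAAHR library under every GFP library and 8 had the opposite. Among all genes with a count in any library these shares were 10.9% and 9.5%. The 36 genes of origin licensing and the replication fork, which surround the MCM helicase, had 34 tested and 0 called by edgeR, with 3 lower and 2 higher at an unadjusted p under 0.05. DESeq2 called 1 of them higher and limma-voom 1 lower. Of 29 genes of spindle and cytokinesis 15 were tested and 2 were called lower, and 12 had every CAAHR library lower while 0 had every CAAHR library higher. The kinetochore and checkpoint list (19 in the table, 10 tested) had 0 calls by edgeR, DESeq2 and limma-voom and 1 lower at an unadjusted p under 0.05. Calls by edgeR were all lower in chromosome structure and repair (1 of 18 tested, the lamin gene Lmnb1), nucleotide supply (1 of 10) and cell cycle drivers (3 of 15). In nucleotide supply DESeq2 called 1 lower and 1 higher. The 9 lower genes became 3 without CAAHR replicate 36, and 5 or 6 without CAAHR replicate 31 or any 1 GFP library, while Racgap1, Shmt1 and Cdkn2c were called in every fit that was run.

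The lower genes included Racgap1, which works with Kif23 at the central spindle. It was at 0.732, 0.928 and 0.591 CPM in CAAHR and at 1.93, 2.86 and 1.83 CPM in GFP, with a log2 fold change of -1.55 ± 0.27 (adjusted p = 0.0100, edgeR test). Spag5, the spindle protein astrin, had a log2 fold change of -0.87 (adjusted p = 0.0177, edgeR test). The growth factor-responsive transcription factor gene Myc was at 2.63 to 4.41 CPM in CAAHR and 6.91 to 10.4 CPM in GFP, with a log2 fold change of -1.26 ± 0.22 (adjusted p = 0.0111, edgeR test). Cks1b, a small subunit of cyclin-dependent kinases, and Ccnd2, cyclin D2, had log2 fold changes of -1.16 and -0.67 (adjusted p = 0.0175 and 0.0298, edgeR test). Shmt1, a folate enzyme that feeds thymidylate synthesis, had one of -0.90 (adjusted p = 0.00897, edgeR test).

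Of the 7 inhibitors of cyclin-dependent kinases 2 were called lower and 1 higher. Cdkn2c, which encodes p18-INK4c, was at 6.74, 10.9 and 8.66 CPM in CAAHR and at 18.4, 18.8 and 17.5 CPM in GFP. The GFP libraries were close together and well above the CAAHR libraries, and the log2 fold change was -1.05 ± 0.16 (adjusted p = 0.00515, edgeR test). Cdkn2a, the INK4a/ARF locus, had 4 to 7 counts in CAAHR and 14 to 24 in GFP, and passed the filter through GFP libraries only, with a log2 fold change of -2.08 ± 0.48 (adjusted p = 0.0308, edgeR test). Cdkn2d, which encodes p19-INK4d, was called higher, at 11.9, 19.7 and 16.2 CPM in CAAHR and at 7.92, 8.53 and 9.72 CPM in GFP. Its log2 fold change was 0.87 ± 0.18 (adjusted p = 0.0213, edgeR test). Cdkn2a was not called without CAAHR replicate 31 or 36 or without GFP replicate 42 or 43, and Cdkn2d was not called without CAAHR replicate 36 or without any 1 GFP library. The other inhibitors were not called. Cdkn1b had every CAAHR library higher and a log2 fold change of 0.46 (adjusted p = 0.0697, edgeR test), Cdkn1a had one of 0.32 with overlap, and Cdkn2b and Cdkn1c had -1.004 and -0.31 with every CAAHR library lower.

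Of 14 transcription regulators of the cell cycle 0 were called by edgeR, DESeq2 or limma-voom, with 3 lower and 2 higher at an unadjusted p under 0.05. For Mybl2 DESeq2 gave no adjusted p. Foxm1, the mitotic activator, was at 0.277, 0.263 and 0.180 CPM in CAAHR and at 0.456, 0.481 and 0.359 CPM in GFP, with no overlap and a log2 fold change of -0.84 ± 0.37 (adjusted p = 0.200, edgeR test). Rbl2, the p130 subunit of the DREAM repressor, was at 53.0, 55.2 and 53.2 CPM in CAAHR and at 47.6, 46.7 and 37.1 CPM in GFP. All CAAHR libraries were higher, and the log2 fold change was 0.30 ± 0.11 (adjusted p = 0.129, edgeR test). E2f1, E2f7, E2f8, Mybl2 and Rb1 overlapped between groups, with log2 fold changes of -0.20, 0.14, 0.39, -0.37 and -0.13.

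Markers of immune cells moved in the same direction as the proliferation genes. Of 10 B and plasma cell markers 6 were called lower by edgeR, 8 by DESeq2 and 3 by limma-voom, beside 4.57%, 6.99% and 4.8% of all tested genes. Of the 6, 1 (Pou2af1) reached the filter level in no CAAHR library, so its call is a description. The summed level of the 10 was 20.1, 17.9 and 11.3 CPM in CAAHR replicates 31, 34 and 36. In GFP replicates 42, 43 and 46 it was 146, 583 and 312 CPM. The immunoglobulin heavy chain gene Ighm was the most abundant of the list. The T and NK cell list had a summed level of 1.23 to 1.84 CPM against 3.52 to 12.9 CPM. Of its 15 markers 5 were tested, and the 3 called lower by edgeR (Cd8b1, Cd2 and Lck) reached the filter level in no CAAHR library, so that their calls are a description. DESeq2 called 3 and limma-voom 2 lower. The most abundant of the list, the T cell receptor subunit gene Cd3e, was at 0.837 to 1.45 CPM in CAAHR and 0.963 to 2.28 CPM in GFP, with groups that overlapped and a log2 fold change of -0.42 (adjusted p = 0.516, edgeR test). Of 8 neutrophil markers 5 were tested and 4 called lower by edgeR, 5 by DESeq2 and 3 by limma-voom, with a summed level of 2.33 to 3.30 CPM against 7.05 to 17.0 CPM. The 3 genes of the neutrophil list that were not tested were Elane, at 0 counts in all 6 libraries, Ly6g, at 0 to 3 counts, and Mpo, at 0 to 2. Macrophage markers had 0 calls of 10 tested by edgeR, 6 lower by DESeq2 and 1 lower by limma-voom (8 lower at an unadjusted p under 0.05 in edgeR), with 23.9 to 41.2 CPM against 50.5 to 117 CPM and Lyz2 as the most abundant gene. GFP replicate 43 was the highest library for the B cell, T cell and macrophage sums, as it was for 20 of the 38 proliferation genes. The neutrophil sum was instead highest in GFP replicate 46, at 17.0 CPM against 9.85 CPM in GFP replicate 43. The part of these cells in the proliferation genes was not tested. From these 6 libraries alone, a gain of them in GFP muscle and a loss in CAAHR muscle cannot be told apart. The study's assay of selected immune genes against naive mice bears on this but was not analysed here. The germinal centre B cell list, which stands for B cells dividing in follicles, was at 1.19 to 1.70 CPM in CAAHR and 1.04 to 1.71 CPM in GFP.

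The lists of other cells of the muscle differed among themselves. Satellite cell and myoblast markers had a summed level of 52.9, 67.9 and 68.3 CPM in CAAHR and 56.0, 63.8 and 54.1 CPM in GFP. Pax7, the satellite cell factor, was at 2.12, 2.85 and 2.07 CPM in CAAHR and at 2.69, 1.66 and 2.25 CPM in GFP, with a log2 fold change of 0.09 ± 0.23. Among these 10 markers 7 were fitted higher and 3 lower. Vcam1, which other cells also express, was called lower (log2 fold change -1.08) by all 3 tools. Myog, the differentiation factor myogenin, had every CAAHR library higher, at 2.75, 4.74 and 4.92 CPM against 2.57, 2.07 and 1.49 CPM. With a log2 fold change of 1.02 ± 0.27 (adjusted p = 0.0523, edgeR test), it was called higher by DESeq2 but not by edgeR or limma-voom. At an unadjusted p under 0.05 edgeR gave 2 higher (Myog and Chrdl2) and 1 lower. The endothelial list overlapped, at 227 to 316 CPM in CAAHR and 244 to 297 CPM in GFP, as did the pericyte and smooth muscle list at 282 to 475 CPM and 353 to 361 CPM, each with 0 calls by edgeR, DESeq2 and limma-voom (1 and 0 at an unadjusted p under 0.05). Fibro-adipogenic progenitor markers overlapped at 313 to 556 CPM and 447 to 544 CPM, with 0 of 7 called by edgeR and limma-voom, 1 lower by DESeq2 and 1 at an unadjusted p under 0.05. Adipocyte markers had 2 of 5 called lower by edgeR and DESeq2 and 1 by limma-voom. Of all tested genes these tools called 4.57%, 6.99% and 4.8% lower and 3.04%, 5.14% and 4.04% higher. The 2 edgeR calls, Plin1 and Cfd (adjusted p = 0.047 and 0.046, edgeR test), were lost without the filter (0.136 and 0.0987). All 5 adipocyte markers were fitted lower, with a median log2 fold change of -2.09. Their sums were 85.7 to 134 CPM in CAAHR and 103 to 212 CPM in GFP. Schwann cell markers had 0 of 6 called by edgeR and limma-voom (2 by DESeq2, and 2 at an unadjusted p under 0.05). All 6 were fitted lower, with a median of -0.58 and sums of 45.5 to 74.5 CPM in CAAHR and 74.3 to 124 CPM in GFP. Both pairs of sums overlapped. The erythroid list had 0 calls by all 3 tools and 1 gene higher at an unadjusted p under 0.05. Muscle fibre genes were lower in sum (132300 to 164400 CPM against 198100 to 202800 CPM), a sum led by the fast myosin gene Myh4, but did not move one way, with 6 of 11 fitted lower and 5 higher. By edgeR 4 were called lower (Acta1, Ckm, Tnnt3 and Tnni2) and 0 higher, by DESeq2 5 lower and 2 higher (Myh7 and Tnnt1), and by limma-voom 5 lower and 1 higher (Myh7). Myh7, the myosin of slow fibres, was at 877, 156 and 809 CPM in CAAHR and at 37.6, 52.6 and 79.5 CPM in GFP, with a log2 fold change of 3.44 ± 0.78 (adjusted p = 0.0692, edgeR test). Slow troponin T, Tnnt1, also had every CAAHR library higher and a log2 fold change of 2.88 ± 0.74 (adjusted p = 0.0932, edgeR test). Of 3 tested genes of regenerating fibres 1, Actc1, was called lower by all 3 tools.

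**Figure D5:**
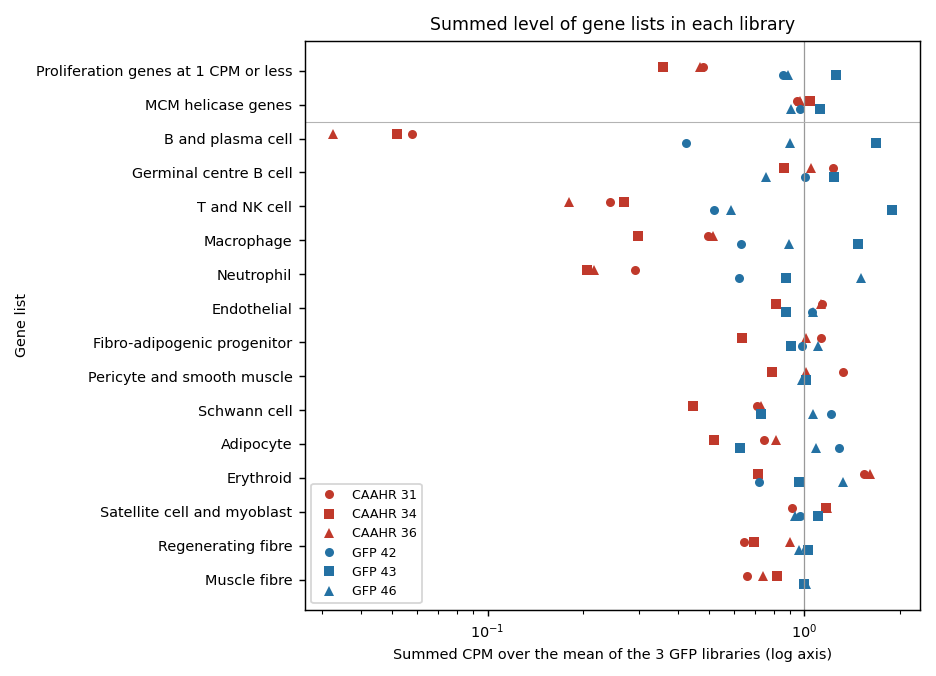
Summed CPM of gene lists in each library, divided by the mean of the 3 GFP libraries, on a log axis. Red symbols are CAAHR libraries and blue symbols GFP libraries. The 24 low proliferation genes lie left of 1 in all CAAHR libraries, as do the B, T and NK cell, macrophage and neutrophil lists. The Schwann cell, adipocyte, regenerating fibre and muscle fibre lists also lie left of 1 in all CAAHR libraries. The MCM genes and the endothelial and satellite cell lists lie around 1.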

How the data were processed

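RNA of 6 gastrocnemius muscles was analysed. As the authors deposited them, the values are whole-number counts per gene: poly(A)-selected paired reads were trimmed with Trimmomatic 0.36, aligned to GRCm38 with STAR 2.5.2b and counted over exons with featureCounts, using unique reads. Whether the libraries were stranded was not given in the sources used here. Groups and replicate numbers came from the sample titles.

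The tests were run with edgeR 4.0.16 under R 4.3.3 (filterByExpr, TMM scaling, robust quasi-likelihood F test) and adjusted by the Benjamini-Hochberg method over 15847 genes at a threshold of 0.05. The study's group size of 3 equals the 3 libraries of each group, so each library was taken as 1 mouse. Alternatives used DESeq2 1.42.0, limma 3.58.1 voom, other scalings and filters, and leaving out each library. The code was tested on simulated data. Positions and exon overlaps came from GENCODE M21, and promoters from RefSeq. No library repeats another, since chi-square over degrees of freedom was 23.7 or more for each pair within a group.

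The members and lists were chosen with earlier results of these data known, in which a proliferation list was already lower. Named were all 38 genes and, from the wider lists, the 8 called genes with the smallest p-values in each direction, all 7 kinase inhibitors, Foxm1, Mybl2, E2f1, E2f7, E2f8, Rb1 and Rbl2. From each marker list the most abundant gene could be named. Lmnb1, Pax7, genes overlapping the 38, and marker genes that are not the most abundant of their list were named after their values were seen.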

Additional observations from a re-analysis of the deposited data

How the results depend on the processing

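The 6 genes called lower became 11 without a filter on low counts, and 2 to 8 when 1 library was left out. Those also over 2-fold lower numbered 5, with 3 under DESeq2, 3 when at least 10 counts were asked of every library, and 2 to 5 when 1 library was left out. The median over tested genes was -0.458 with at least 10 counts in every library, which leaves fewer of the low genes, and between -0.906 and -0.609 with 1 library left out. In the wider lists the 9 lower genes became 14 without a filter and 3 to 11 with 1 library left out. The 1 higher gene became 4 under DESeq2, 3 with scaling by library size only, 5 without a filter and 0 to 2 with 1 library left out. Calls over all genes, lower or higher, numbered 1205 with the filter and all 6 libraries. They numbered 2470 without a filter and 530 to 1727 with 1 library left out. The cause of these moves was not tested.

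Mki67 and Top2a were called in each of 14 alternatives. Rrm2 and Tpx2 were called in 10 of 14, Ncapg in 8 of 12 and Ccnb1 in 7 of 12, and the fits that lost them left out a library. DESeq2 gave no adjusted p for Ccnb1, Ncapg, Cdk1, Kif15 and Mybl2.

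Genes near 0 changed sign. Pcna was at -0.001 under DESeq2 and under RLE scaling, and -0.064 under upper quartile scaling. Under that scaling Mcm6 was at -0.05 and Mcm7 at -0.013. Mcm2 and Mcm4 were at 0.066 and 0.081 with library size only and at 0.003 and 0.012 without a filter. With limma-voom Mcm6 was at -0.038, E2f7 at -0.069 and E2f8 at -0.025. With 1 library left out, Mcm2 ranged from -0.187 to 0.079, Mcm6 ranged from -0.271 to 0.180, E2f1 ranged from -0.684 to 0.144, E2f7 ranged from -0.210 to 0.394, E2f8 ranged from -0.702 to 0.882, Mcm4 ranged from -0.126 to 0.075, Pcna ranged from -0.054 to 0.076, Aurka ranged from -0.043 to 0.224, Kif11 ranged from -0.836 to 0.097, Mcm7 ranged from -0.009 to 0.140, Rb1 ranged from -0.278 to 0.073 and Mcm3 ranged from -0.255 to 0.031. Of 710 checks of single genes, 617 kept direction and side of the threshold, 38 lost a call, 19 gained one and 36 changed sign.

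No paired analysis was possible because no replicate number occurs in both groups. The 95% interval of the log2 fold change ran from -4.68 to -1.45 for Ccnb1, with 11 to 20 counts in a GFP library, and from -0.22 to 0.24 for Pcna, which was at 17.8 CPM or more in every library. What size of change could be called at each depth is not given here.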
